A study of Mus musculus with 200 samples.

Results

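Collagens are secreted triple-helical proteins that give the extracellular matrix its tensile strength and anchor cells to basement membranes. The genes described here are all those in the deposited count tables whose symbol is Col, a number, the letter a and a number, with the exception of Col2a1, Col9a1, Col9a2, Col9a3 and Col11a1, the collagen chains of cartilage matrix. Among 22033 genes the symbol matched 42, of which 37 were kept, 35 of them on autosomes and 2, Col4a5 and Col4a6, on the X chromosome. They fall into classes by how the finished molecules assemble: 9 chains of fibrillar collagens, 6 of the type IV network of basement membranes, 5 of the beaded filaments of type VI, 6 of the FACIT collagens that decorate fibrils, 3 of the short chain networks, 2 multiplexins, 4 transmembrane collagens, and 2 others, Col7a1 of the anchoring fibrils of skin and Col28a1.

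Expression was measured in whole mouse embryos at E11.5, dissected free of extra-embryonic tissue, with 3SEQ, which sequences the 3′ ends of polyadenylated transcripts. The 16 F1 embryos came from reciprocal crosses of C57BL/6J (B6) and CAST/EiJ (Cast), the mother being named first. In B6 x Cast, 1 litter of 3 embryos (58 to 63 somites) and 1 litter of 5 (48 to 50 somites) were collected. In Cast x B6 there was 1 litter of 4 at 41 to 43 somites and 1 of 4 at 46 to 48 somites, so that within each cross the older and the younger litter also differ in everything else that separates 2 litters. The 154 N2 embryos came from backcrosses to B6, 89 of them with a B6 mother and an F1 father (17 litters) and 65 with an F1 mother and a B6 father (12 litters). All F1 parents descended from B6 females and Cast males. Because the other parent was B6, every N2 embryo is either homozygous B6 or heterozygous at an autosomal gene. Somite number, a count of the segments that are added in sequence along the trunk, was given for 147 N2 embryos and ran from 42 to 57.

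Fibrillar collagens (types I, III, V, XXIV and XXVII here, with the XI chain Col11a2) make the banded fibrils of skin, tendon, vessel wall and, later, bone. Type IV collagen is secreted by epithelia, endothelia and mesenchyme and forms the sheet-like scaffold of every basement membrane; its principal molecule in the embryo combines chains of Col4a1 and Col4a2. Col18a1 is a proteoglycan of basement membranes whose C-terminal fragment is endostatin, and type VI collagen links fibrils to basement membranes. At this stage limb and craniofacial mesenchyme condenses and bone has not begun to form; the osteoblast genes Sp7, Bglap and Ibsp had mean reads-per-million values (RPM, the gene's reads scaled to the library's total) of 0.0834, 0.0237 and 0.141 in the N2 embryos. The other osteoblast markers of the list, Runx2 and Alpl averaged 1.73 and 13.7 RPM. None of 5 markers of trophoblast and decidua averaged over 1 RPM, and their sum reached 22.9 RPM in 1 N2 embryo.

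The genes of the most abundant type IV chains lie head to head. Their start regions are shown because Col4a1 and Col4a2 are described together below. In RefSeq (GRCm38.p6) the annotated starts are 21 bases apart. Each window runs from 250 bases before the start to 50 bases from it, Col4a1 on the minus strand at chr8:11312777-11313076 and Col4a2 on the plus strand at chr8:11312555-11312854, so that 78 bases are common to both and appear in opposite orientation. Capitals mark matches on either strand to CCAAT or to the GC box GGGCGG.
Col4a1: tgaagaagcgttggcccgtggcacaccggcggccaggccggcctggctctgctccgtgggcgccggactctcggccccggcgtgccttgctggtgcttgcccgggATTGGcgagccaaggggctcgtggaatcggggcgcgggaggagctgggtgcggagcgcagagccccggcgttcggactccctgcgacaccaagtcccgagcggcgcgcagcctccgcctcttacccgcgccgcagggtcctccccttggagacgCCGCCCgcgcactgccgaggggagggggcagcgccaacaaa
Col4a2: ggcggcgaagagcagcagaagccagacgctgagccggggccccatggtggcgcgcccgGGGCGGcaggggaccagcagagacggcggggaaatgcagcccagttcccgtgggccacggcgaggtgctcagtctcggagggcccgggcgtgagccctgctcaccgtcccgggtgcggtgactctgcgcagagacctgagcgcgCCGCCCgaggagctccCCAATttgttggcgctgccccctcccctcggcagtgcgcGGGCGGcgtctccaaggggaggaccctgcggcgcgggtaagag
The Col4a1 window held 1 CCAAT and 1 GGGCGG, the Col4a2 window 1 CCAAT and 3 GGGCGG, and neither held TATAAA. Their GC content was 74% and 73.7%. A window was found for 31 of the 37 collagens: 11 held CCAAT, 20 held GGGCGG and 5 held TATAAA, compared with 41.1%, 38.2% and 15.7% of 27025 genes. These are letter matches only.

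Levels are given in RPM, computed over the reads assigned to genes in that embryo, which a 3′ method leaves unscaled for transcript length. N2 libraries held 245220 to 5370322 reads and F1 libraries 15703888 to 38234229. Of the 37 collagens, 20 averaged at least 5 RPM over the N2 embryos and entered the tests in N2, and the other 17 averaged 0.0545 to 4.41 RPM. Among the fibrillar chains 6 of 9 passed this limit (Col1a1, Col1a2, Col3a1, Col5a1, Col5a2 and Col27a1), among type IV chains 2 of 6 (Col4a1 and Col4a2), and among type VI chains 2 of 5 (Col6a1 and Col6a2). FACIT members above it were Col12a1, Col16a1, Col20a1 and Col22a1; the rest were Col8a1, Col8a2, Col18a1, Col13a1, Col23a1 and Col7a1. The members below it were Col5a3, Col11a2 and Col24a1, Col4a3 to Col4a6, Col6a4 to Col6a6, Col14a1, Col19a1, Col10a1, Col15a1, Col17a1, Col25a1 and Col28a1. Col4a3 and Col4a4, whose chains serve the mature kidney filter, had no read in 137 and 129 of 154 N2 embryos. Col10a1, the collagen of hypertrophic cartilage, had none in 121.

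The sequencing lane moved with many of these values. N2 libraries were spread over 14 lanes on 2 flowcells, and with 1 exception (1 embryo of a B6 mother among 9 in lane M) a lane held embryos of 1 kind of mother. Lanes A to I and lanes J to N differed widely: Col5a2 had lane medians of 4.21 to 8.95 RPM in the first 9 lanes and 47.1 to 94.3 RPM in the last 5. Col3a1 went from 14.3 to 25.3 RPM to 68.01 to 106.6 RPM, Col8a2 from 0.814 to 5.29 RPM to 10.3 to 20.8 RPM, and Col12a1 from 1.94 to 4.88 RPM to 5.04 to 11.6 RPM. In these 4 of 20 collagens every lane median of J to N lay above every one of A to I, as in 24.96% of 10007 genes; in none did they all lie below, against 8.36% of genes. Lane accounted for 17.8% (Col22a1) to 86.3% (Col5a2) of the variance in log2(RPM + 1), with a median of 51.8% for the collagens and 57.9% for all genes. Not every chain of a class shared this pattern. Among the fibrillar chains, Col1a2 and Col5a1 also shifted up in J to N, with a slight overlap of lane medians. Col1a2 went from 26.6 to 106 RPM to 100 to 294 RPM, and Col5a1 from 11.4 to 35.7 RPM to 33.1 to 71.7 RPM. The lane medians of Col27a1 overlapped as well. Those of Col1a1 did not shift up, with 31.3 to 181 RPM in A to I and 29.5 to 76.6 RPM in J to N. Because of these lane differences, pooled correlations with somite number are given below with the values found when lane was removed.

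**Figure D1:**
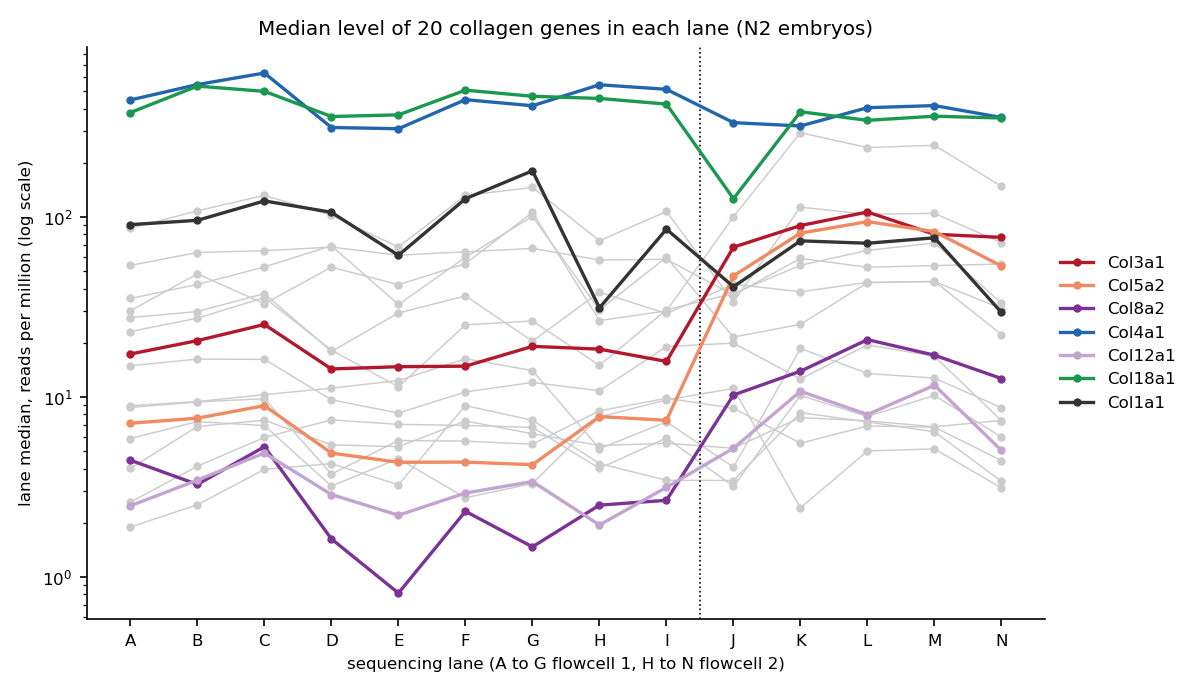
Median level of each of the 20 collagens with at least 5 RPM in the N2 embryos of each sequencing lane, in RPM on a log scale; the dotted line separates lanes A to I from J to N and 7 genes are coloured. Col3a1, Col5a2, Col8a2 and Col12a1 step up at lane J, and Col4a1 stays between 309 and 631 RPM.

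The first comparison asks which collagens change as the embryo adds somites. Over 147 N2 embryos 8 of 20 collagens rose with somite number and 1 fell (Spearman's correlation, Benjamini-Hochberg q under 0.05), where 14.1% of 10007 genes rose and 7.97% fell. With lane regressed out of the ranks 7 rose and 1 fell, against 8.5% and 3% of genes. In whole embryos fewer cells of a type and less RNA per cell cannot be told apart. The median rho of the collagens was 0.17 and that of all genes -0.02. Fibrillar chains rose in 3 of 6 cases, both type VI chains rose, 2 of 4 FACIT members and Col7a1 rose, and neither type IV chain passed the test.

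Both type VI chains tested rose. Col6a2 had a median of 31.1 RPM (14.2 to 69.6) in the 21 embryos with up to 45 somites, 33.2 RPM (4.40 to 89.2) in 58 embryos with 46 to 49, 49.0 RPM (8.59 to 152) in 54 embryos with 50 to 52, and 67.3 RPM (13.7 to 160) in 14 embryos with 53 and over. The bins overlap, and the highest values are in the last one. Its rho was 0.49 (q = 1.98e-08), 0.58 with lane removed (q = 1.16e-10), 0.54 within lanes A to I and 0.46 within lanes J to N. Col6a1, the partner chain, rose as well (rho = 0.25, q = 0.0165; 0.29 with lane removed, q = 0.00858), from a median of 3.54 RPM in the youngest bin to 7.74 RPM in the oldest. It gave 0.36 within lanes A to I (q = 0.00414) and 0.11 within J to N (q = 0.618), 0.56 in embryos of F1 mothers and 0.03 in those of B6 mothers (q = 0.818), and edgeR did not call it (q = 0.0844). The third chain of the common type VI molecule, Col6a3, was not analysed here.

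Among the FACIT collagens, Col16a1, which sits on fibrils and near basement membranes, had bin medians of 9.52, 11.6, 16.3 and 17.4 RPM. Its rho of 0.57 (q = 7.17e-12) was the highest of the 20, and it was 0.38 with lane removed (q = 0.000197), 0.60 in lanes A to I and 0.54 in lanes J to N. It was the only collagen called when each litter was reduced to its mean. Col20a1 (rho = 0.38, q = 5.24e-05) had bin medians of 4.91, 6.21, 7.72 and 9.65 RPM, and Col7a1 (rho = 0.37, q = 6.97e-05) had 3.79, 4.27, 6.06 and 9.82 RPM. Both missed the threshold with lane removed (q = 0.0555 and q = 0.446). Within lane groups both were called, with 0.36 each in lanes A to I (q = 0.00452 and q = 0.00438) and 0.41 and 0.43 in J to N (q = 0.0295 and q = 0.0208). Col12a1 and Col22a1, the remaining FACIT members tested, gave pooled rho of 0.19 (q = 0.0753) and -0.05 (q = 0.685), and 0.22 and -0.02 with lane removed. By mother (B6, then F1), Col12a1 gave -0.02 and 0.49 (q = 0.00167 for F1 mothers), and Col22a1 -0.33 (q = 0.00731) and 0.41 (q = 0.0108).

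Fibrillar chains were mixed. Col1a1 rose (rho = 0.29, q = 0.00413; 0.31 with lane removed; 0.32 within lanes A to I and 0.26, q = 0.202, within J to N), with bin medians of 64.3, 73.2, 93.2 and 91.6 RPM, whereas Col1a2, which encodes the other chain of type I collagen, gave a rho of -0.00 pooled (q = 0.996) and 0.14 with lane removed (q = 0.324). Col27a1, a fibrillar chain of developing cartilage and other tissues, rose as well (rho = 0.29, q = 0.0038, and 0.32 with lane removed). Its median went from 26.03 RPM at 46 to 49 somites to 42.5 RPM at 53 and over, although the 21 youngest embryos had a median of 35.5 RPM. Within lanes A to I it gave 0.23 (q = 0.103), and within J to N 0.50. By mother (B6, then F1), Col27a1 gave 0.33 (q = 0.00639) and 0.27 (q = 0.111). Col5a1, which regulates fibril diameter, was called in the pooled test (rho = 0.24, q = 0.0236) and not with lane removed (q = 0.0732). It gave 0.50 within lanes A to I (q = 1.16e-05), 0.14 within J to N (q = 0.526), and -0.03 in embryos of B6 mothers. Col3a1 and Col5a2 gave rho of 0.12 (q = 0.275) and 0.09 (q = 0.449), and 0.21 and 0.15 with lane removed (q = 0.106 and q = 0.291). Within lanes A to I both were called (0.38, q = 0.00233, and 0.30, q = 0.0228), and within J to N neither was (-0.00 and 0.13). In embryos of F1 mothers Col3a1 was called (0.42, q = 0.0081) and Col5a2 was not (0.29, q = 0.0814). Those of B6 mothers gave -0.06 for Col3a1 and -0.04 for Col5a2.

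Col18a1 went the other way. Its median was 487 RPM (265 to 589) in the youngest bin, 422 RPM (126 to 735) and 370 RPM (84.6 to 662) in the middle bins and 415 RPM (107 to 508) in the oldest. The pooled rho was -0.21 (q = 0.0498), and -0.45 with lane removed (q = 3.15e-06). Within lanes A to I it was -0.15 (q = 0.303) and within lanes J to N -0.54 (q = 0.00144). Lane J had a median of 126 RPM, and the other lanes had 344 to 534 RPM. By mother it was -0.36 in embryos of B6 mothers (q = 0.00304) and 0.06 in those of F1 mothers (q = 0.772). The transmembrane chain Col13a1 had nearly the same pooled rho, -0.21, and just missed the threshold (q = 0.052). With lane removed it gave -0.17 (q = 0.215). By mother (B6, then F1), Col13a1 gave -0.40 (q = 0.000995) and -0.07 (q = 0.719). Col23a1 gave -0.09 pooled (q = 0.468) and, by mother, -0.25 (q = 0.0436) and 0.05 (q = 0.791). The main type IV chain Col4a1 had bin medians of 364, 402, 425 and 453 RPM, with a pooled rho of 0.20 (q = 0.0559) and -0.20 with lane removed (q = 0.115), so the sign depended on lane. For Col4a2 the values were 0.08 and -0.03. In embryos of F1 mothers both were called, Col4a1 with 0.49 (q = 0.00149) and Col4a2 with 0.41 (q = 0.011), whereas those of B6 mothers gave 0.15 (q = 0.224) and -0.24 (q = 0.053). The short chain collagens Col8a1 and Col8a2, which form the hexagonal lattice of the corneal and vascular matrix, missed the threshold in the pooled test. Both were called after lane was removed (0.31, q = 0.00564, and 0.26, q = 0.0248). Col8a2 was also called within lanes A to I (0.34, q = 0.0081) and in embryos of F1 mothers (0.40, q = 0.013). In those of B6 mothers Col8a2 was not called (0.00, q = 0.974). Col8a1 was not called within lanes A to I (0.20, q = 0.16). It was not called in embryos of B6 mothers (0.01, q = 0.931) or of F1 mothers (0.25, q = 0.133) either. Within litters, in edgeR's quasi-likelihood test with litter as a factor, the calls were Col6a2 (0.16 log2 per somite, q = 0.00054), Col8a1 (0.16, q = 0.0385) and Col18a1 (-0.08, q = 0.0434). Connective tissue markers as a list gave a rho of 0.06 with somite number and cartilage markers 0.38; their part in these results was not tested.

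**Figure D2:**
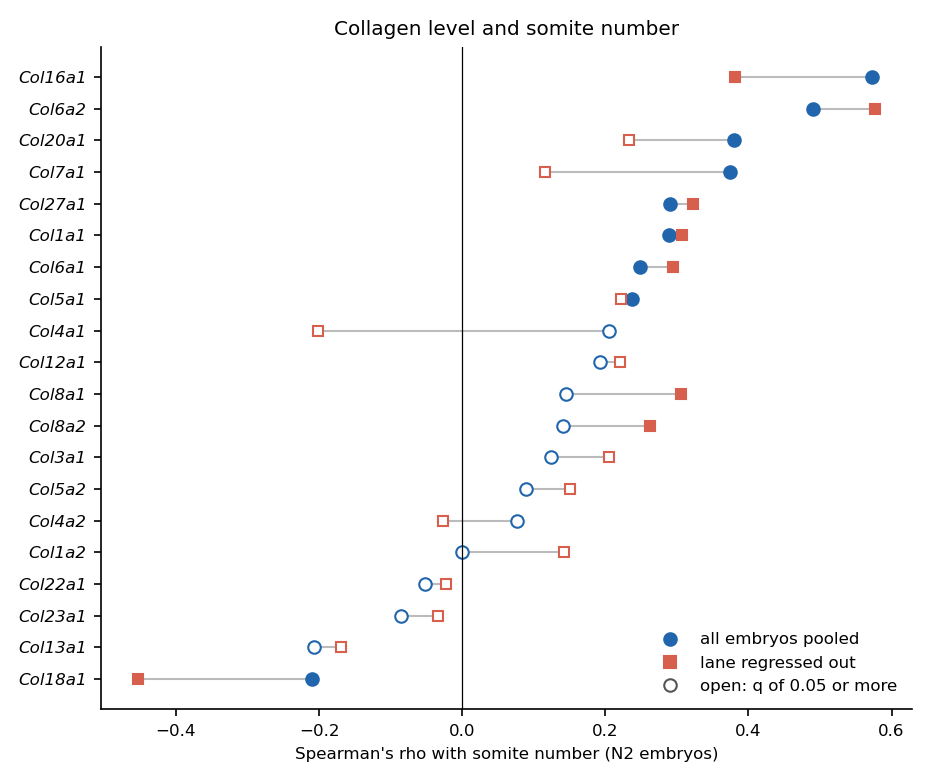
Spearman's rho of RPM with somite number for 20 collagens over 147 N2 embryos (horizontal axis), pooled (circles) and with lane regressed out (squares), filled where q is under 0.05. Col16a1 has the highest pooled value, Col6a2 the highest with lane regressed out, and Col18a1 the lowest of both kinds.

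The second comparison sets embryos of B6 mothers against embryos of F1 mothers, which have had a mother of another genotype. No collagen passed the Mann-Whitney test with Bonferroni correction at 0.01, which 5.03% of 9733 autosomal genes did. At an unadjusted p under 0.05 there were 8 collagens of 20, about the share of all genes (40.2%). For edgeR and DESeq2, which called 5 each at q under 0.05, the share of all genes was not counted. Under a Benjamini-Hochberg q of 0.05 the rank test called 5 of 20, against 31.6% of genes: Col6a2, Col8a1, Col1a1, Col4a2 and Col13a1. All 5 were higher in embryos of F1 mothers. Col6a2 came nearest, with 37.9 ± 19.8 RPM (SD, n = 89) for B6 mothers and 59.4 ± 31.01 RPM (SD, n = 65) for F1 mothers (adjusted p = 0.0124). Col1a1 averaged 75.04 ± 43.1 and 103 ± 47.5 RPM, Col8a1 5.81 ± 4.06 and 7.90 ± 3.06 RPM, and Col4a2 90.6 ± 35.4 and 110 ± 33.6 RPM. Within each flowcell the differences kept their sign and none of the 5 passed the Bonferroni threshold. Flowcell 2 held lanes H to N, so it mixed lanes of both groups, and its embryos of F1 mothers were all in lanes L and M. On the log2 scale Col1a1 went from 0.45 pooled to 0.19 and 0.20 on flowcells 1 and 2, Col4a2 from 0.28 to 0.07 and 0.26, Col13a1 from 0.26 to 0.08 and 0.41, Col6a2 from 0.65 to 0.56 and 0.42, and Col8a1 from 0.44 to 0.52 and 0.56. Embryos of F1 mothers were also older, with a median of 50 somites against 48, and because lane and mother nearly coincide the mother and the lane cannot be told apart.

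The change per somite was also compared between the mothers. In edgeR 9 of 20 collagens had a slope that differed by mother (q under 0.05), where 46.1% of genes did. The slope was steeper in embryos of F1 mothers for Col5a1, Col6a1, Col1a2, Col12a1, Col3a1, Col8a2 and Col5a2 and lower for Col7a1 and Col20a1. Col5a1 differed by 0.19 ± 0.042 log2 per somite (SE, q = 0.000518), and Col5a2 by 0.32 ± 0.11 (SE, q = 0.0163). With lane in the model none of the 9 was called.

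The F1 litters allow the same question in other animals and at greater depth, with stage and litter inseparable. The older Cast x B6 litter also differed in its sequencing runs, sharing 1 of its 2 runs with the other 3 litters, which had both runs in common, so the run cannot be told apart from that litter or from a difference between the crosses. In B6 x Cast, the litter with 58 to 63 somites was compared with the litter with 48 to 50 (edgeR, q under 0.05). Of 32 collagens tested 11 were higher and 1 lower in the older litter, where 7.14% and 7.84% of 15271 genes were. In Cast x B6, the litter with 46 to 48 somites was compared with the one with 41 to 43, and 6 of 32 collagens were higher and 8 lower, against 15% and 14% of genes. The median difference was 0.42 on the log2 scale in B6 x Cast (all genes 0.05) and -0.12 in Cast x B6 (all genes -0.01). These differences are after TMM scaling. With library totals in its place, as in RPM, the median of all genes moved up by 0.17 in B6 x Cast and by 0.13 in Cast x B6. The collagen calls became 15 higher and 0 lower, and 9 higher and 6 lower. With library totals the share of all genes called was not counted, and the shares above hold for TMM only. Because of the scaling, RPM values below differ slightly more upwards than the log2 differences.

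In B6 x Cast the calls were mainly fibrillar (5 of 9 higher), FACIT (3 of 5) and both short chain members. Col6a2 had 174, 152 and 205 RPM in the older litter and 80.9, 77.8, 110, 63.3 and 67.6 RPM in the younger, a difference of 0.97 ± 0.20 log2 (SE, q = 0.00578), with no overlap. Col16a1 had 45.0, 38.9 and 31.4 RPM against 17.4, 17.5, 19.7, 14.4 and 13.5 RPM (1.05 ± 0.15, q = 0.00069). The largest difference was that of Col11a2, a chain of type XI collagen, with 11.0, 7.33 and 6.85 RPM in the older litter and at most 3.09 RPM in the younger (2.00 ± 0.33, q = 0.00147). Older and younger embryos were separated for each of these 3 genes. Type I collagen was higher too: Col1a1 had 442, 364 and 389 RPM against 232, 203, 320, 188 and 212 RPM (0.62 ± 0.18, q = 0.0351). For Col1a2 1 older embryo, with 152 RPM, lay within the younger range of 129 to 165 RPM and the other two had 329 and 351 RPM (0.79 ± 0.24, q = 0.0398). The remaining higher members were Col5a1, Col27a1, Col8a1, Col8a2, Col12a1 and Col14a1, by 0.47 to 0.88 log2. In 16 fits that each left out 1 of the 16 embryos the calls of Col1a1, Col1a2 and Col12a1 held in 9, 8 and 7, with q of up to 0.125, 0.2 and 0.157.

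In Cast x B6 the type IV chains had the smallest q. Col4a2 had 204, 190, 218 and 213 RPM in the younger litter and 118, 162, 107 and 93.9 RPM in the older, a fall of 0.92 ± 0.11 log2 (SE; log2 difference -0.92, q = 8.80e-05). Col4a1 had 504, 524, 652 and 565 RPM and then 396, 406, 407 and 395 RPM (-0.61 ± 0.077, q = 0.000104). All 4 older embryos lay below all 4 younger ones for both genes. In B6 x Cast neither type IV chain was called: Col4a1 differed by 0.05 ± 0.079 (q = 0.697), even though its RPM were 495 to 522 in the older and 408 to 459 in the younger litter, and Col4a2 by 0.11 ± 0.11 (q = 0.528). The difference between the crosses was itself called for both, 0.66 ± 0.11 for Col4a1 and 1.03 ± 0.16 for Col4a2. Col8a1 had 2.08, 3.63, 2.76 and 4.37 RPM in the younger and 7.43, 9.96, 10.2 and 10.2 RPM in the older litter (1.44 ± 0.20, q = 0.000166). Also higher were Col20a1, Col17a1, Col7a1, Col25a1 and Col27a1, and also lower Col13a1, Col22a1, Col15a1, Col1a1, Col5a1 and Col18a1.

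The difference between the crosses was called for 12 of 32 collagens, against 16.9% of genes. Leaving out 1 embryo gave 6 to 14 calls, and the share of all genes was not counted for these fits. Col25a1 was called in 3 of the 16 fits, and Col15a1, Col1a2 and Col13a1 in 5 each, and with library totals Col25a1 (q = 0.068) and Col13a1 (q = 0.0567) were not called. Col1a1 and Col5a1 were called in opposite directions. Col1a1 had 165, 222, 255 and 313 RPM in the younger and 157, 198, 148 and 108 RPM in the older Cast x B6 litter (-0.77 ± 0.18), and the crosses differed by 1.39 ± 0.26 (q = 0.00484). Col5a1 gave 0.52 ± 0.13 in B6 x Cast and -0.49 ± 0.13 in Cast x B6, and the second was no longer called with library totals (-0.36, q = 0.0934). Other calls went the same way in both crosses: Col8a1 and Col27a1 were higher in the older litters, and Col18a1 was lower. Col18a1 had 410, 425 and 448 RPM against 444, 450, 461, 513 and 488 RPM in B6 x Cast (-0.32 ± 0.096, q = 0.0358; -0.14, q = 0.269 with library totals, and called in 9 of the 16 fits without 1 embryo) and 442, 446, 422 and 447 RPM against 547, 610, 740 and 615 RPM in Cast x B6 (-0.64 ± 0.093, q = 0.000263). Erythroid genes, most of all globins, summed to a median of 31255 RPM in the older and 70708 RPM in the younger B6 x Cast litter and 56698 and 87790 RPM in the older and younger Cast x B6 litters; connective tissue markers summed to medians of 409, 245, 266 and 245 RPM in that order. Their part in the litter differences was not tested.

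**Figure D3:**
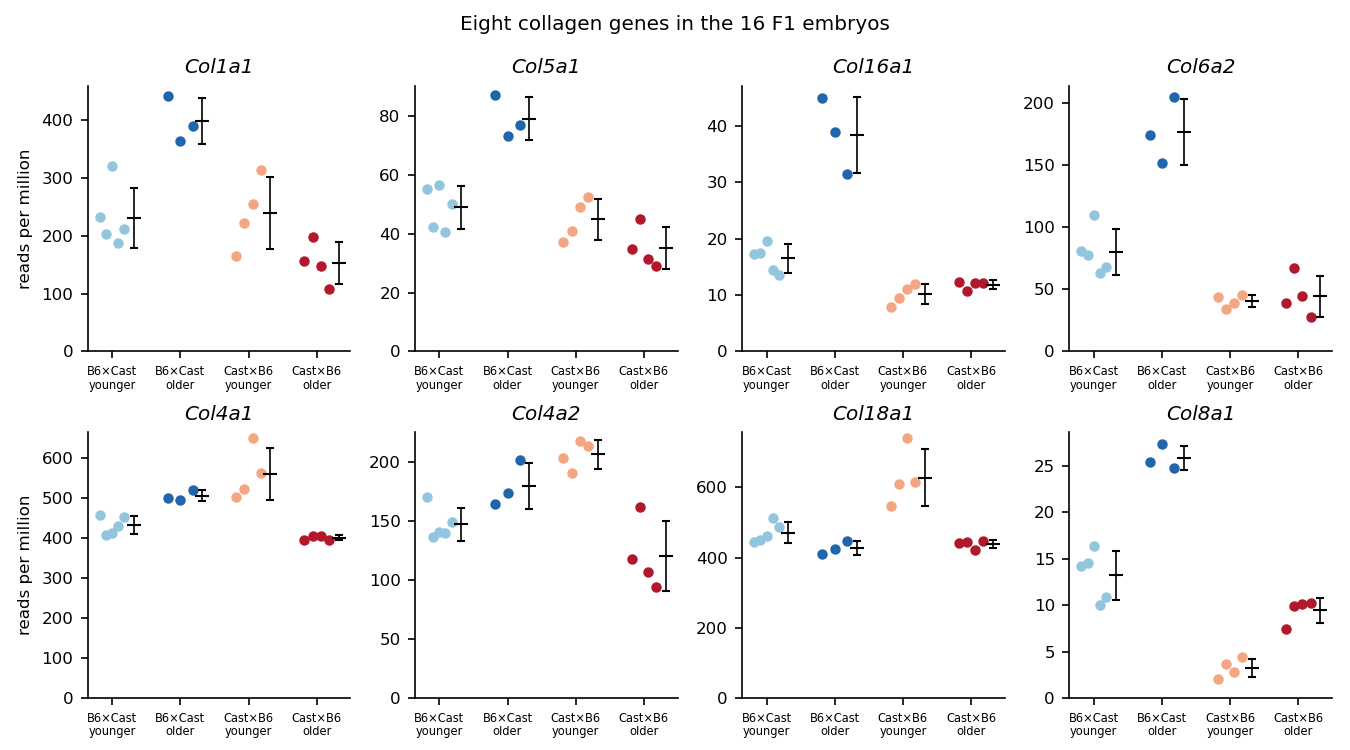
Level of 8 collagen genes in each of the 16 F1 embryos, in RPM from 0, by cross and litter; points are embryos and the bars beside them are the mean and SD of the litter. Col4a1 and Col4a2 fall below the younger litter only in the older Cast x B6 embryos, Col1a1 is higher in the older B6 x Cast litter and lower on average in the older Cast x B6 litter, and Col8a1 is higher in both older litters.

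Fibrillar and basement membrane collagens were then set against each other in each embryo, as the summed RPM of the 9 fibrillar chains over the summed RPM of the 6 type IV chains. Of the fibrillar reads in N2, Col1a2, Col1a1 and Col3a1 gave 31.5%, 25.2% and 13.0%; of the type IV reads Col4a1 gave 80.6% and Col4a2 18.3%. The ratio had a median of 0.509 in N2 (0.141 to 2.09, n = 154). It was 0.513, 0.511, 0.538 and 0.546 in the somite bins from youngest to oldest, and 0.473 for B6 mothers and 0.574 for F1 mothers. These pooled shifts are small beside the one between lanes. The ratio was 0.422 (0.141 to 0.748, n = 98) in A to I and 1.14 (0.414 to 2.09, n = 56) in J to N. Within a lane group the somite bins were less even than when pooled. From youngest to oldest the medians were 0.474, 0.385, 0.417 and 0.445 in A to I (n = 12, 37, 33 and 10). They were 0.712, 1.24, 1.17 and 1.08 in J to N (n = 9, 21, 21 and 4). In J to N the fibrillar sum was higher, with medians of 539 and 231 RPM, and the type IV sum lower, with medians of 469 and 607 RPM. Among the F1 embryos the older B6 x Cast litter had ratios of 1.31, 1.42 and 1.39, above every other F1 embryo. The younger B6 x Cast litter had 0.831 to 1.20, and the Cast x B6 litters 0.594 to 0.833 at 41 to 43 somites and 0.688 to 1.08 at 46 to 48. No test was made of this ratio.

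**Figure D4:**
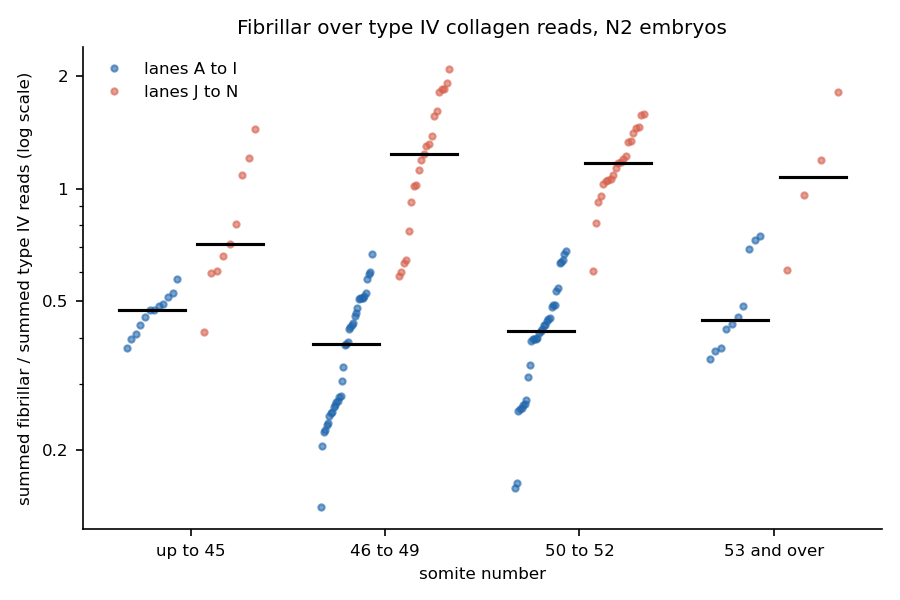
Summed RPM of 9 fibrillar collagen genes over summed RPM of 6 type IV genes in each N2 embryo with a somite number, on a log scale, by somite bin and lane group; points are spread sideways in order of value and black lines are medians. The median of lanes J to N lies above that of lanes A to I in every bin (0.712 and 0.474 in the youngest, 1.08 and 0.445 in the oldest).

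Chains that assemble into 1 molecule need not be transcribed in proportion, so partners were compared across embryos on log2(RPM + 1); these correlations describe embryos that share litters, lanes and depth and carry no test. With lane removed, over 154 N2 embryos, Pearson's r was 0.42 for Col6a1 and Col6a2, 0.39 for Col4a1 and Col4a2, 0.33 for Col5a1 and Col5a2, 0.26 for Col8a1 and Col8a2 and 0.06 for Col1a1 and Col1a2. The median over all 190 pairs of the 20 collagens was 0.16, and 11 pairs exceeded 0.5. In the 16 F1 embryos, which are deeper and also span 4 litters, r was 0.93 for the type VI pair, 0.86 for the type IV pair, 0.59 for type I and 0.51 for type V. The type I pair was the weakest in N2 on the pooled values as well (-0.16). Of the pairs below 5 RPM, Col4a5 and Col4a6 gave 0.12 and Col4a3 and Col4a4 -0.02.

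Heterozygous embryos carry both alleles in 1 nucleus, so their B6 allele fraction (BAF), the share of SNP-informative reads that carry the B6 base, compares the alleles in the same surroundings. It could be tested for 21 collagens. A call needed a Bonferroni adjusted p below 0.01 in a paired test of the votes and a fraction below 0.45 or above 0.55, and 3 were called, against 18.9% of 9084 genes: Col25a1, Col8a2 and Col14a1. All 3 are low in expression.

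Col25a1, a membrane collagen best known from motor neurons and muscle, favoured B6, with a BAF of 0.699 in F1 (369 votes) and 0.886 in heterozygous N2 embryos (185 votes), where a vote is 1 read shared over its SNPs. In the 10 F1 embryos with at least 20 votes it ranged from 0.56 to 0.923, with a median of 0.689. Col8a2 favoured Cast, with a BAF of 0.370 in F1 (1490 votes) and 0.279 in N2 (330 votes). For 15 F1 embryos it lay between 0.235 and 0.556, with a median of 0.383. Col14a1, a FACIT collagen of tendon and skin, favoured Cast with a BAF of 0.358 in F1 and 0.167 in N2. Its BAF was 0.453 in B6 x Cast and 0.248 in Cast x B6, and this difference was not tested. From the F1 embryos alone none of the 3 was called, and each fraction was farther from 0.5 in N2 than in F1.

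Most fibrillar and type IV chains gave fractions near balance. In F1 the BAF was 0.453 for Col1a1 (7025 votes), 0.474 for Col3a1, 0.451 for Col5a1, 0.543 for Col27a1, 0.546 for Col4a1 and 0.509 for Col4a2. Col1a2 had a BAF of 0.536 over all F1 embryos, but the crosses were apart, with 0.562 to 0.720 in the 8 B6 x Cast embryos and 0.436 to 0.513 in the 8 Cast x B6 embryos, and this difference was not tested. Col18a1, with 153027 votes in all, had a BAF of 0.530 in F1 and in N2; its adjusted p was 2.73e-11 and the fraction lay inside the window. Col5a2 had 0.476 in F1 and 0.621 in N2 (747 votes; adjusted p over both 0.387). No BAF changed with somite number in the 5 members that could be tested (Col27a1, Col4a1, Col4a2, Col18a1 and Col23a1; rho of -0.18 to 0.22 over 35 to 74 embryos, smallest q 0.661; none at an unadjusted p under 0.05), where 0.299% of 3342 genes were called at q under 0.1.

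The own-genotype comparison sets heterozygous against homozygous B6 N2 embryos at each gene's own locus, after lane, sex, somite number and 15 principal components were regressed out of log2(RPM + 1). The rank-sum test called 6 of 20 collagens at q under 0.01, against 29.2% of genes: Col3a1, Col1a1 and Col4a2 were higher and Col27a1, Col16a1 and Col18a1 lower in heterozygotes.

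Col3a1, the fibrillar collagen of skin and vessels, stood apart in size. The 69 heterozygotes had 6.29 to 170 RPM with a median of 33.8, and the 83 homozygotes 7.04 to 207 RPM with a median of 18.3. The ranges overlap, and the lanes differ in level. Within lanes the heterozygote median was the higher in 14 of 14 lanes, for example 34.1 against 13.9 RPM in lane I and 23.4 against 10.6 RPM in lane E. The adjusted difference was 0.50 ± 0.056 log2 (SE, q = 3.97e-12), a 1.41-fold higher level. The F1 allele fraction of Col3a1 alone would give a 1.06-fold higher level if each allele kept its F1 output. It was also the only collagen called without the principal components or without any covariate.

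Col5a2 lies beside Col3a1 on chromosome 1 (mm9, Col3a1 at 45368383 to 45406551 on the plus strand, Col5a2 at 45431166 to 45560127 on the minus strand), and all 154 embryos had the same genotype at both. It differed by 0.16 ± 0.064 log2 (q = 0.0694), with the heterozygote median higher in 8 of 14 lanes. The adjusted differences of the other called members were small: Col1a1 0.14 ± 0.042 (q = 0.00127), Col4a2 0.10 ± 0.033 (q = 0.0085), Col18a1 -0.09 ± 0.021 (q = 0.000308), Col16a1 -0.18 ± 0.053 (q = 0.00173) and Col27a1 -0.20 ± 0.038 (q = 1.97e-05). The values computed from their F1 allele fractions were 0.14, -0.03, -0.09, -0.20 and -0.12. These F1 fractions were, in the same order, 0.453, 0.509, 0.530, 0.574 and 0.543. In heterozygous N2 embryos the fractions were 0.494, 0.473, 0.530, 0.525 and 0.560, and no such values were computed from them. Col4a1, which shared its genotype with Col4a2 in all 154 embryos, differed by -0.00 ± 0.028. Col8a2, called for its allele fraction, differed by 0.09 ± 0.076 (q = 0.635) where its F1 fraction gives 0.44.

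**Figure D5:**
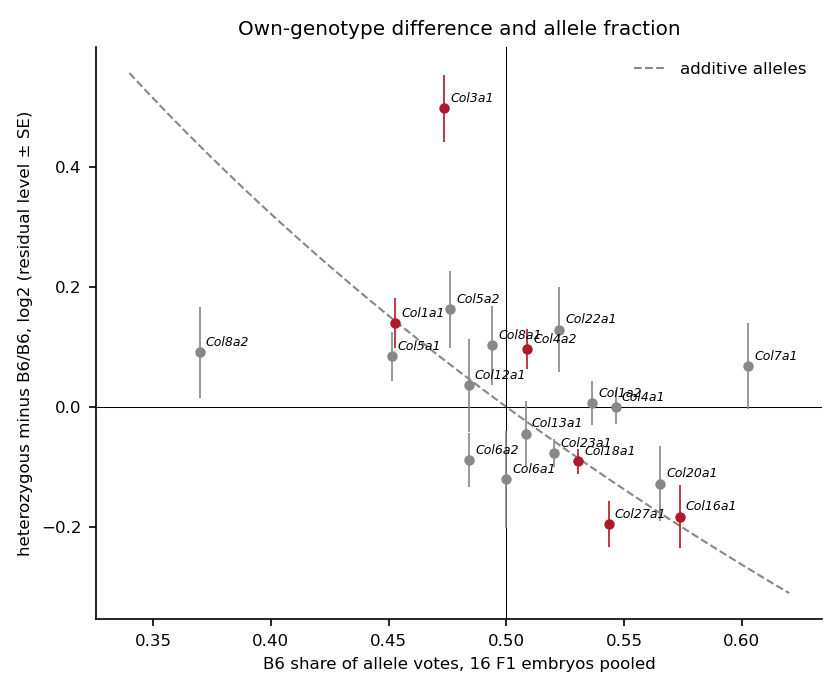
Difference between heterozygous and homozygous B6 N2 embryos for 20 collagens (vertical axis, log2 after regression on lane, sex, somite number and 15 principal components, bars of 1 standard error) against the BAF pooled over the 16 F1 embryos; red points have q under 0.01 and the dashed line is the difference that the F1 fraction gives if alleles add. Col3a1 lies at 0.50, where its F1 fraction gives 0.08, and Col1a1, Col16a1 and Col18a1 lie near the line.

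Other genes of the collagen pathway were counted from lists. Of 20 genes for synthesis and processing tested, 8 rose with somite number and none fell (14.1% and 7.97% of all genes), and the counts were also 8 and 0 with lane removed (8.5% and 3% of genes). The largest pooled rho was 0.42 for Fkbp10 and 0.41 for Lepre1, an isomerase and a prolyl 3-hydroxylase that act on new chains, and 0.39 for Bmp1, which cleaves procollagen. Loxl1 and Loxl3, cross-linking enzymes, gave 0.33 and 0.28, and with lane removed Loxl3 was still called and Loxl1 was not. Among 12 other basement membrane proteins Lama4 (0.42) and Lamb2 (0.32) rose and Lama1 (-0.29) fell, Lamb2 not being called with lane removed. None of 4 receptors was called, and 1, Ddr1, with lane removed. Among 6 genes of matrix degradation Timp2, an inhibitor of metalloproteases, rose (0.30), and Mmp2 joined it with lane removed. The cartilage collagens left out by the rule had 3 of 5 called, Col9a2 (0.41), Col2a1 (0.35) and Col9a3 (0.31), Col2a1 not being called with lane removed.

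In the older Cast x B6 litter, beside Col4a1, Col4a2 and Col18a1, the basement membrane genes Lama1 (-1.20), Lamc1 (-0.77), Lama5 (-0.87), Lamc3 (-0.74) and Hspg2 (-0.47), encoding laminin chains and perlecan, were lower by edgeR on the log2 scale, and Nid1 (0.38) and Lama4 (0.44) higher, 5 and 2 of 15 tested, against 14% of genes lower and 15% higher. In B6 x Cast 1 of the 15, Nid2, was higher (0.41) and 1, Lamc3, lower (-0.46), against 7.14% and 7.84% of genes. For the own genotype, 2 of 20 synthesis and processing genes were called higher and 8 lower in heterozygotes, where 29.2% of all genes were called. Of 12 other basement membrane proteins 4 were higher and 2 lower. Among degradation genes 2 of 5 were higher, as were 2 of 5 cartilage collagens, and none of 4 receptors was called. The largest differences were 0.58 for the cartilage collagen Col11a1, 0.46 for Mrc2, a receptor that takes up collagen for breakdown, and -0.46 for Nid1.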

How the data were processed

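Reads were prepared by 3SEQ, trimmed of poly(A) tails and mapped by the authors with Bowtie2 to mm9 and to a version of it carrying Cast SNPs; versions are not given in the sources used here. The deposited tables hold raw read counts per gene, and estimated counts of allele votes (each read shared over its SNPs), which the authors left unscaled; the deposited genotypes are calls of a hidden Markov model. Each F1 embryo was sequenced in 2 runs and has 1 column. Of 168 N2 columns, 154 were used, 8 having no mother in the labels and 6 no genotypes.

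RPM were computed from the counts over all genes. Tests followed the study's methods: Spearman's correlation with somite number (also for allele fractions), the Mann-Whitney test by mother, a paired t-test of B6 and Cast votes (at least 20 per cross), and a rank-sum test by own genotype (at least 20 embryos of each), for which 15 principal components stood in for PEER factors and a pseudocount of 1 was used. F1 litters and slopes were tested with edgeR 4.0.16 (quasi-likelihood, TMM; R 4.3.3), with DESeq2 1.42.0 as an alternative. Genes needed a mean of 5 RPM in N2, or filterByExpr in F1. The methods were checked on simulated counts.

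Every collagen was named, and those of at least 5 RPM were given values. The members and gene lists were chosen with earlier results of these data known. Embryos of a litter share a mother, so p-values treat related embryos as separate. Counts per gene limit the precision of low members in N2, where libraries held as few as 245220 reads. Alternatives were other scalings, filters, tests and covariates, subsets by mother, lane and flowcell, and leaving out each F1 embryo; subsets by lane group, the 141 deepest libraries and scaling by library totals were chosen after seeing the data.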

Additional observations from a re-analysis of the deposited data

Results flagged for a closer look

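In 5 of 68 groups of 8 F1 embryos 1 embryo stood far from the rest by Dixon's criterion, which chance gives in about 1 of 20 groups drawn from a single population. Each group here joined the older and the younger litter of a cross, so that rate need not apply. In Cast x B6 1 embryo had 46.6 RPM of Col27a1 (next 34.7 RPM) and 66.98 RPM of Col6a2 (next 45.2 RPM), and in B6 x Cast 1 embryo had 14.6 RPM of Col8a2 (next 8.77 RPM). The allele fractions that stood apart, both in Cast x B6, were 0.667 for Col16a1 (next 0.541) and 0.446 for Col4a2 (next 0.505).

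The slope on somite number differed by mother (F1 minus B6 mothers, log2 per somite, edgeR) for 9 collagens: by 0.19 for Col5a1, 0.21 for Col6a1, 0.26 for Col1a2, 0.18 for Col12a1, 0.22 for Col3a1, 0.30 for Col8a2, 0.32 for Col5a2, -0.13 for Col7a1 and -0.10 for Col20a1. Mother nearly coincides with lane, and none was called with lane in the model.

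The older to younger litter difference of the F1 embryos (B6 x Cast minus Cast x B6, log2, edgeR) differed by 1.03 for Col4a2, 0.66 for Col4a1, 1.01 for Col5a1, 1.39 for Col1a1, 2.46 for Col11a2, 0.94 for Col16a1, 1.21 for Col8a2, 0.99 for Col6a2, 1.12 for Col1a2, 1.11 for Col15a1, 0.64 for Col13a1 and -0.93 for Col25a1. The litters compared in the crosses span different somite numbers, and the older Cast x B6 litter was sequenced in another pair of runs, so cross, litter, stage and run cannot be told apart. Without 1 embryo at a time, Col25a1 was called in 3 of 16 fits and Col15a1, Col1a2 and Col13a1 in 5 each.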

How the results depend on the processing

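Against somite number, where 9 collagens were called, 1 collagen was called on means over litters and 3 with litter as a factor in edgeR. By mother, where the rank test with Bonferroni correction called none, Benjamini-Hochberg adjustment gave 5 calls, edgeR 5, edgeR with somite number 7, DESeq2 5, and flowcell 2 alone 1 (Col5a1). Of these alternatives, the share of all genes was counted only for Benjamini-Hochberg adjustment (31.6%). From the F1 embryos alone 0 allele calls were left, and with at least 100 votes 1. The own-genotype count fell from 6 to 1 without principal components, without any covariate and within lanes J to N, to 3 in embryos of B6 mothers and to 2 in embryos of F1 mothers. With lane in the model, 0 slopes differed by mother, and the difference changed sign for Col3a1 (-0.0309), Col5a2 (-0.0812), Col5a1 (-0.00415), Col8a2 (-0.172), Col1a2 (-0.0270) and Col7a1 (0.0109). Among correlations with somite number called over all embryos or in the subset, the sign changed for Col5a1 in embryos of B6 mothers (-0.0307) and on flowcell 2 (-0.0334), and in embryos of F1 mothers for Col18a1 (0.0575) and Col22a1 (0.406). Leaving out each F1 embryo in turn gave 6 to 14 calls in B6 x Cast, 11 to 15 in Cast x B6 and 6 to 14 for the difference between crosses; the 6 calls in B6 x Cast came without either of 2 older embryos. In all 16 of these fits Col16a1, Col6a2, Col27a1 and Col11a2 were called in B6 x Cast, and Col4a1, Col4a2, Col18a1, Col8a1, Col13a1, Col1a1, Col20a1, Col22a1 and Col17a1 in Cast x B6. Apart from the Benjamini-Hochberg adjustment by mother, the share of all genes called was not counted for the alternatives named here. Whether calls over all genes changed to the same degree is therefore not known. The cause of the changes among the collagens was not tested. No paired analysis was possible because the replicate numbers only name embryos within a group and no embryo of 1 group belongs with an embryo of another. Low depth limits the N2 values of the 17 members under 5 RPM, which the N2 tests left out.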
